A study of Rattus norvegicus with 18 samples.

Results

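The vasopressin V2 receptor gene Avpr2, the urea transporter gene Slc14a2 and the transcription factor gene Elf5 were followed across primary cultures of collecting duct cells from the inner medulla of the rat kidney. Each is read by 1 feature of the array, so the genes are 3 of 28328 features. They were taken by name as genes of a differentiated collecting duct, through the platform's table of gene symbols, and they were chosen with earlier results of these data known. The 18 arrays form 6 groups of 3. The 300 culture and the 600 culture were grown at 300 and 600 mosmol/kg with no further treatment. The 600 challenge was a 300 culture moved to 600 mosmol/kg for 24 h, and the 900 challenge was a 600 culture moved to 900 mosmol/kg for 24 h. Both challenges were repeated in the presence of 5 µM cyclosporin A, which blocks calcineurin, a phosphatase. The labels give neither the solutes that raised the osmolality, nor the age of the cultures, nor whether vasopressin or cyclic AMP was in the medium, nor the number of animals behind the arrays of a group. The p-values therefore cover only array-to-array spread, and this may be technical. No group had a mock step at unchanged osmolality, so the effect of hypertonicity and that of handling or of 24 h more in culture cannot be told apart.

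Vasopressin binds the V2 receptor on the basolateral side of principal cells, the receptor works through a stimulatory G protein and adenylyl cyclase, and the cyclic AMP formed brings the water channel aquaporin 2 into the apical membrane. In the terminal inner medulla the same signal opens the urea transporters UT-A1 and UT-A3, which let urea pass from the tubule into the interstitium and so help to concentrate the urine. Slc14a2 encodes both of them, and also the shorter UT-A2 of the thin descending limb of the loop of Henle, which starts from an internal promoter. Elf5 encodes an ETS family factor with an epithelial pattern, and in the mouse kidney it marks the principal cell lineage and takes part in the expression of Avpr2 and Aqp2. Nfat5, the factor that answers to hypertonicity, is known to act on the UT-A promoter.

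The Slc14a2 feature is annotated with 3 RefSeq transcripts, so it does not separate the transporters. The RefSeq promoter table (build GRCr8) gives 2 starts for Slc14a2 and 1 for Avpr2, and the bases before them are shown because the annotated starts of Slc14a2 are far apart. Which start was in use in these cultures was not tested. The first Slc14a2 start has upstream of it chr18:74314547-74314796 on the minus strand, and the internal start chr18:73921585-73921834 on the same strand. For Avpr2 a stretch of 120 bases that ends 131 bases before the start is given, chrX:156784889-156785008 on the plus strand. Capitals mark GGAA, the core of ETS sites, on either strand (TTCC where it lies on the other strand), and the Avpr2 stretch holds none.
Slc14a2, first start: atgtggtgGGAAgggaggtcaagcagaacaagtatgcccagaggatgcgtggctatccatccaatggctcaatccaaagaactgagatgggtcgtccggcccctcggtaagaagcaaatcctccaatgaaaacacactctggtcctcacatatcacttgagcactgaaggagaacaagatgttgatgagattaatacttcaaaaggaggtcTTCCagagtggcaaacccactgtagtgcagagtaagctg
Slc14a2, internal start: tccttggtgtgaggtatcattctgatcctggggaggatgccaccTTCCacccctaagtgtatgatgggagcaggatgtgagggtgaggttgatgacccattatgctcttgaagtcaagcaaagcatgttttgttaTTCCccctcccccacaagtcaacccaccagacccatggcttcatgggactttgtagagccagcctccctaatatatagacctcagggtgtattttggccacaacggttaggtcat
Avpr2: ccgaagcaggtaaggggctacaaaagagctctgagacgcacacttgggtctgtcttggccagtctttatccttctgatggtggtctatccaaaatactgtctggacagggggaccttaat

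GGAA was found on either strand in each of the 3 windows of 250 bases before a start, 2 times in each; in the Avpr2 window both lie downstream of the printed bases, 84 and 8 bases before the start. GGAA is present in 93.2% of all 33469 promoter windows of that length, so its presence here does not set these genes apart. TGGAAA, the core of the tonicity enhancer to which Nfat5 binds, which itself contains GGAA, was not found in these 3 windows, and 19.7% of all windows hold it. TGACG, a half-site for cyclic AMP response factors, was not found either, against 18.2% of all windows. These searches say only which letters stand in these windows.

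The deposited values are on a log scale of unstated base. Levels and differences are given as log units, and a difference of 1 means 2-fold if the base is 2 or 2.72-fold if the logarithm is natural. Array medians lay between 3.56 and 3.65, lower quartiles between 2.48 and 2.70 and upper quartiles between 5.04 and 5.11. No signal over background is given, and levels under the lower quartile are not shown to be above it. The same holds for Avpr2 and Elf5 in the 300 culture and the 600 challenges, where they lay near or below the array medians. Replicate arrays correlated at 0.983 to 0.987 across features, no array stood apart in that measure, and no pair was identical. Of the markers that define the labelled cell type, Aqp2 (mean 1.61) and Slc14a2 (1.98) lay below the lower quartiles in the 300 culture, where Aqp3 was at 2.87 and Avpr2 at 3.35. In the 600 culture Aqp2, Slc14a2, Aqp3 and Avpr2 reached 6.50, 5.77, 5.93 and 5.68. The other markers, Hsd11b2 (2.43 and 2.81) and Scnn1g (2.26 and 2.43), stayed near or below the lower quartiles in both cultures and were not called between them. In bulk RNA a lower level from fewer cells of a type cannot be told apart from less RNA per cell.

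Avpr2 read 3.30, 3.26 and 3.50 on the arrays of the 300 culture and 5.77, 5.63 and 5.65 on those of the 600 culture. The 600 challenge gave 3.71, 3.16 and 3.40, and with cyclosporin A 3.46, 3.27 and 3.35. The 900 challenge gave 6.84, 6.71 and 6.65, and with cyclosporin A 6.63, 6.64 and 6.72. The arrays thus formed a low set, all from cells first grown at 300 mosmol/kg and overlapping among themselves, and a high set from cells first grown at 600. Within their arrays the low set ranked between the 39.5th and 51.8th percentile of all features, the 600 culture between 83.3 and 85.8, and the 900 challenges between 94.3 and 96.0.

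Slc14a2 read 2.06, 1.93 and 1.97 in the 300 culture, which is at the 6.93rd to 10.5th percentile and below the lower quartile of every array. It read 6.03, 5.67 and 5.61 in the 600 culture. The 600 challenge gave 3.09, 3.19 and 3.22, and with cyclosporin A 3.14, 2.95 and 2.70. These challenged arrays all lay above the 300 culture and far below the 600 culture, a middle level that neither Avpr2 nor Elf5 had. The 900 challenge gave 7.09, 7.06 and 6.91, and with cyclosporin A 6.96, 7.09 and 6.98, with the 2 sets overlapping.

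Elf5 read 3.40, 3.02 and 2.94 in the 300 culture and 6.41, 6.21 and 6.21 in the 600 culture. The 600 challenge gave 3.36, 3.41 and 3.45, and with cyclosporin A 2.89, 3.36 and 3.26. The 900 challenge gave 7.05, 7.05 and 7.03, and with cyclosporin A 6.82, 6.93 and 6.83. As for Avpr2, the arrays of cells first grown at 300 were all low, whatever the later osmolality, and the 900 challenges were highest. In both challenges the arrays with cyclosporin A lay below those without it, but narrowly in the 600 challenge, where the nearest arrays read 3.359 and 3.364. Neither drug difference was called (limma adjusted p = 0.641 and 0.642). The share of all features that separate in this way was not counted, so no weight is put on it.

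**Figure D1:**
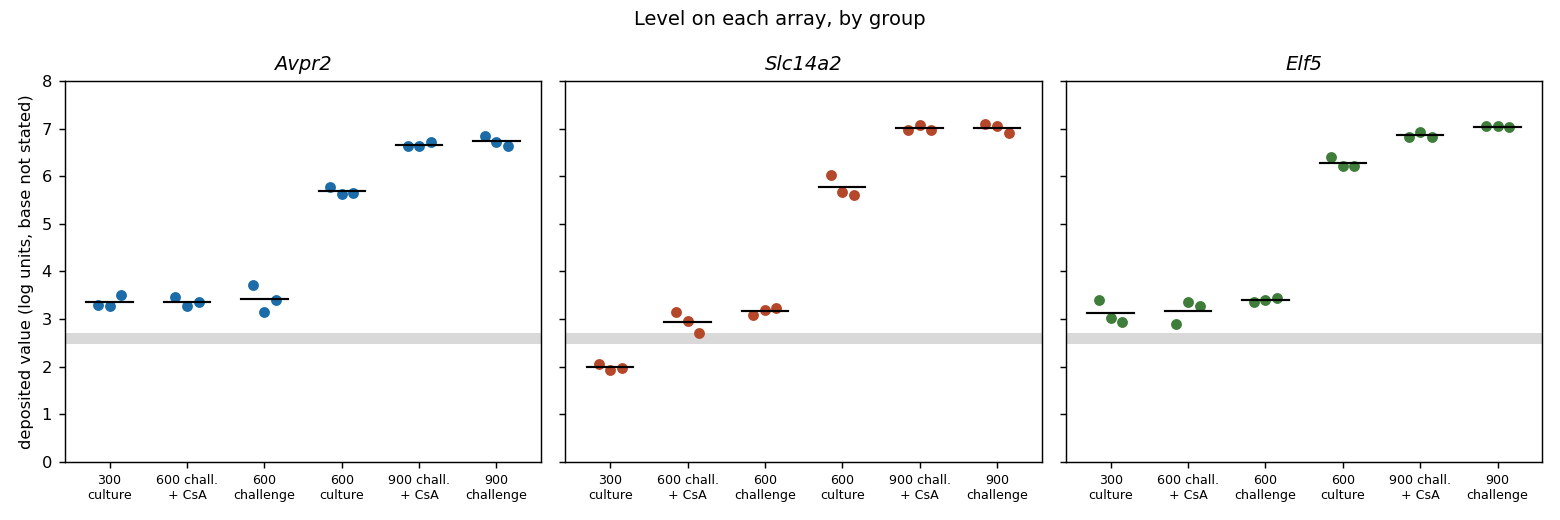
Level of Avpr2, Slc14a2 and Elf5 on each of the 18 arrays (y axis, deposited value in log units of unstated base), by group (x axis; chall., challenge; CsA, cyclosporin A). Points are arrays, black lines are means of 3, and the grey band spans the lower quartiles of the arrays (2.48 to 2.70); for all 3 genes the 600 culture and both 900 challenges stand above the 300 culture and both 600 challenges.

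Long-term growth at 600 instead of 300 mosmol/kg went with higher levels of all 3 genes. Slc14a2 went from 1.98 ± 0.06 to 5.77 ± 0.23 (SD, n = 3), a rise of 3.78 ± 0.11 (SE) with a limma adjusted p of 7.94e-12. That is 13.8-fold with base 2 and 44.0-fold with the natural logarithm, and since the lower level is not shown to be above background, this and every other Slc14a2 difference from the 300 culture may understate the change. Elf5 rose by 3.15 ± 0.12, from 3.12 ± 0.24 to 6.28 ± 0.12 (limma adjusted p = 1.08e-10), which is 8.90-fold or 23.4-fold. Avpr2 rose by 2.33 ± 0.11, from 3.35 ± 0.13 to 5.68 ± 0.08 (limma adjusted p = 1.38e-09), which is 5.02-fold or 10.3-fold. The lower levels of Elf5 and Avpr2 are not shown to be above background either. In this comparison 8.33% of all features were called higher and 8.84% lower. Ranked by difference among the 15295 features with a single symbol, Slc14a2 was number 3 from the top, Elf5 number 9 and Avpr2 number 25.

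The acute step to the same osmolality gave a different picture for the receptor and the transporter. Slc14a2 rose in the 600 challenge by 1.18 ± 0.11, from 1.98 ± 0.06 to 3.17 ± 0.07 (limma adjusted p = 4.91e-06), number 40 in that ranking. Avpr2 differed by 0.07 ± 0.11 (95% interval -0.17 to 0.31, limma adjusted p = 0.787), with overlapping arrays, so a change of the size seen in long-term culture lies far outside its interval. Neither Avpr2 level (3.35 and 3.42) is shown to be above background, so this describes the deposited values only. Elf5 differed by 0.29 ± 0.12 (0.03 to 0.54), which did not pass the test over all features (limma adjusted p = 0.141). That call rests on 1 array: without replicate 1 of the 300 culture the Elf5 difference was 0.42 with a limma adjusted p of 0.0227. In this step 6.36% of all features were called higher and 8.07% lower, so Slc14a2 was the 1 of the 3 genes called.

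Set directly against the 600 culture, the 600 challenge was lower by 2 log units or more in each gene although both were at 600 mosmol/kg when harvested. The difference was -2.26 ± 0.11 for Avpr2 (limma adjusted p = 2.56e-09), -2.60 ± 0.11 for Slc14a2 (8.33e-10) and -2.87 ± 0.12 for Elf5 (4.75e-10), where 16.4% of all features were called in either direction. Expressed as a share of the difference between the 2 cultures, which does not depend on the base of the logarithm, 24 h at 600 mosmol/kg covered 31.3% for Slc14a2 (30.5 to 32.4% when each array was left out in turn). The share was 9.05% for Elf5 (6.42 to 12.9%) and 2.85% for Avpr2 (-3.28 to 8.54%). With cyclosporin A the shares were 24.99% (22.2 to 28.1%), 1.61% (-1.36 to 6.02%) and 0.21% (-2.01 to 3.30%). These shares use the same arrays of the 300 culture in both terms. That level is not shown to be above background for any of the genes, and it is furthest down for Slc14a2. The shares therefore describe the deposited values only, and the ranges over left-out arrays do not cover this.

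In cells already grown at 600 mosmol/kg the step to 900 went with higher levels of all 3 genes. Slc14a2 rose by 1.25 ± 0.11 from 5.77 ± 0.23 to 7.02 ± 0.10 (SD, n = 3; limma adjusted p = 2.64e-06), Avpr2 by 1.05 ± 0.11 to 6.73 ± 0.10 (1.11e-05) and Elf5 by 0.77 ± 0.12 to 7.04 ± 0.01 (0.000354). No array of the 900 challenge overlapped the 600 culture for any of them, but the share of all features that separate in this way was not counted. Here 6.43% of all features were called higher and 11% lower, and the genes ranked 48, 94 and 242 from the top. The step from 600 exceeded the step from 300 by 0.98 ± 0.16 for Avpr2 (limma adjusted p = 0.00146 for the difference of the steps, where 7.58% of features were called). For Slc14a2 the steps differed by 0.07 ± 0.16 (95% interval -0.28 to 0.41, limma adjusted p = 0.884), where the step from 300 starts at a level not shown to be above background and may be understated, so the steps are not shown to be alike. For Elf5 they differed by 0.48 ± 0.17 (0.12 to 0.84), which did not pass (limma adjusted p = 0.109). The step from 300 also starts at a level not shown to be above background for Avpr2 and Elf5, and may be understated.

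From the lowest to the highest osmolality, the 900 challenge stood above the 300 culture by 5.03 ± 0.11 for Slc14a2 (limma adjusted p = 1.97e-13). For Elf5 that difference was 3.92 ± 0.12 (3.74e-12) and for Avpr2 3.38 ± 0.11 (9.06e-12), while 31.7% of all features were called. Slc14a2 ranked number 2 from the top among features with a single symbol, Elf5 number 12 and Avpr2 number 23. The sizes and ranks rest on levels of the 300 culture that are not shown to be above background, furthest down for Slc14a2.

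Cyclosporin A did not give a called difference in any of the 3 genes. During the 600 challenge Avpr2 differed by -0.06 ± 0.11 with the drug (95% interval -0.30 to 0.18, limma adjusted p = 0.945), Slc14a2 by -0.24 ± 0.11 (-0.48 to 0.01, 0.606) and Elf5 by -0.23 ± 0.12 (-0.49 to 0.02, 0.641). During the 900 challenge the differences were -0.07 ± 0.11 (-0.31 to 0.17, limma adjusted p = 0.885), -0.01 ± 0.11 (-0.25 to 0.23, 0.989) and -0.18 ± 0.12 (-0.44 to 0.08, 0.642). Few features were called for the drug at all, 0.229% higher and 0.18% lower in the 600 challenge and 0.357% higher and 0.148% lower in the 900 challenge. Drug effects of more than 0.5 in either direction lie outside all 6 intervals, and smaller ones were not resolved. The drug effects at 900 and 600 differed by -0.01 ± 0.16 for Avpr2, 0.23 ± 0.16 for Slc14a2 and 0.06 ± 0.17 for Elf5 (limma adjusted p = 0.996, 0.804 and 0.966, with 0.0459% of features called).

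Against their unchallenged cultures the challenges with the drug gave the calls seen without it, and both use the same control arrays. In the 600 challenge with cyclosporin A Slc14a2 rose by 0.95 ± 0.11 over the 300 culture (limma adjusted p = 4.26e-05), while Avpr2 (0.005 ± 0.11, 0.987) and Elf5 (0.05 ± 0.12, 0.858) were not called, where 14.1% of features were. In the 900 challenge with cyclosporin A all 3 rose over the 600 culture: Slc14a2 by 1.24 ± 0.11 (limma adjusted p = 2.51e-06), Avpr2 by 0.98 ± 0.11 (2.09e-05) and Elf5 by 0.59 ± 0.12 (0.00283), where 17.8% of features were called. Over the 6 groups Avpr2 and Slc14a2 share 1 order of mean levels: 300 culture, 600 challenge with cyclosporin A, 600 challenge, 600 culture, 900 challenge with cyclosporin A, 900 challenge. Elf5 has the same order. Neighbours that did not differ in the test were the 600 challenges with and without the drug and the 900 challenges with and without it, for all 3 genes, and for Avpr2 and Elf5 also the 300 culture and the 600 challenge with the drug.

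**Figure D2:**
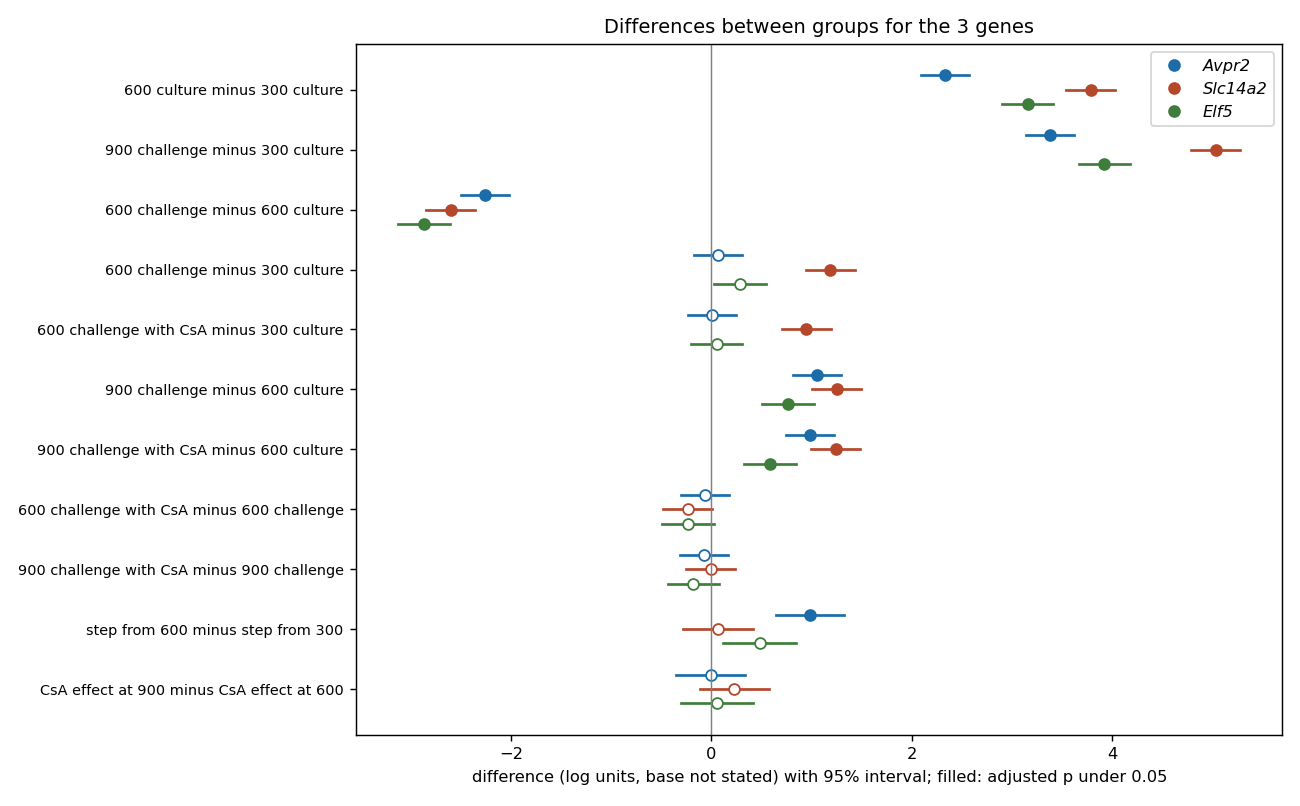
Differences between groups (x axis, log units of unstated base) for Avpr2, Slc14a2 and Elf5 in the 11 comparisons (y axis; CsA, cyclosporin A). Points are limma estimates from 3 arrays a group, bars are 95% intervals and filled points have an adjusted p under 0.05; in the 600 challenge against the 300 culture only the Slc14a2 point is filled, and all 6 points of the drug comparisons are open.

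The signalling chain below the receptor was described with 13 genes. Of these 2 were called higher and 1 lower in the 600 culture against the 300 culture, beside 8.33% and 8.84% of all features. The median difference was 0.02, against 0.002 over all features. The risers were Avpr2 itself and Rapgef3, the cyclic AMP sensor Epac1 (1.15 ± 0.13). Prkar2a, a regulatory subunit of protein kinase A, was lower (-0.27). Adcy6, which in the mouse encodes the main vasopressin-responsive adenylyl cyclase of the collecting duct, differed by 0.17 and was not called. Adcy6 and 9 further genes of the chain were the 10 not called in that comparison. Adcy6 was higher after both steps, by 0.39 in the 600 challenge and 0.67 in the 900 challenge, and so was Prkar2b, another regulatory subunit, by 0.38 and 0.65. Adcy3, a further adenylyl cyclase, rose in the 900 challenge (0.81) and not in the 600 challenge (-0.14, not called). In the 900 challenge 5 of the 13 were called higher and 1 lower (median 0.10), beside 6.43% and 11% of all features. In the 600 challenge 2 were higher and 3 lower (median 0.06), beside 6.36% and 8.07% of all features, the lower ones being Gnas (-0.16), which encodes the stimulatory G protein subunit, Prkacb (-0.29), a catalytic subunit of protein kinase A, and the anchoring protein gene Akap7 (-0.61).

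Of 12 measured genes that restrain or oppose vasopressin signalling, 3 were called higher and 3 lower in the 600 culture (median -0.04), where 8.33% and 8.84% of all features were. Higher were Avpr1a, the V1a receptor (1.27), Ptger3, the prostaglandin E receptor that lowers cyclic AMP (0.51), and Arrb1, the arrestin gene (0.49). Lower were the cyclic AMP phosphodiesterase genes Pde4b (-0.41) and Pde4d (-0.23) and Rgs2 (-0.28), a regulator of G protein signalling. In the 900 challenge Pde4d rose by 0.64 and Arrb1 by 0.30, while Rgs2 (-0.74) and the protein kinase A inhibitor genes Pkia (-0.37) and Pkib (-0.60) were lower. Of all features 6.43% were called higher and 11% lower in that challenge. Pkib (-0.48) and Arrb1 (-0.18) were the genes of this list called in the 600 challenge, both lower, where 6.36% of all features were called higher and 8.07% lower.

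Of 7 genes of water and sodium transport, 5 were called higher and none lower in the long-term comparison (median 1.27), beside 8.33% and 8.84% of all features. The water channel genes Aqp2, Aqp3 and Aqp4 rose by 4.89 ± 0.14, 3.06 ± 0.15 and 2.40 ± 0.15, the epithelial sodium channel subunit gene Scnn1a by 1.27 and the kinase gene Sgk1 by 0.32. The Aqp2 level in the 300 culture is not shown to be above background, so its rise may be understated. The genes of the other sodium channel subunits, Scnn1b (0.44) and Scnn1g (0.17), were not called and had means below 2.5 in every group. In the 600 challenge Aqp2 was called higher (0.67), beside 6.36% of all features. Its level there (2.28) was also below the lower quartiles. In the 900 challenge Aqp2 (1.44), Aqp3 (0.78) and Scnn1a (0.28) were called higher, beside 6.43% of all features. Among genes of urea handling, Slc14a1, the UT-B urea transporter of vasa recta and red cells, rose with long-term culture (1.74) but was not called in the 600 challenge (-0.001) and was lower in the 900 challenge (-0.45), where Slc14a2 rose. Arg2, the mitochondrial arginase that releases urea from arginine, rose in all 3 comparisons (1.00, 0.49 and 0.63), whereas Arg1, the cytosolic arginase also found in macrophages, was lower in all 3 (-1.76, -2.18 and -0.78). Over the 7 genes of this list the calls were 4 higher and 2 lower in the 600 culture, 3 and 2 in the 600 challenge, and 4 and 3 in the 900 challenge. Of all features 8.33% and 8.84%, 6.36% and 8.07%, and 6.43% and 11% were called higher and lower in the same order.

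Among 14 measured transcription factor genes of the collecting duct, 11 were called higher and none lower in the 600 culture (median 0.70), with Elf5 the furthest. Of all features 8.33% were higher and 8.84% lower there. Gata2 (1.90) and Gata3 (1.08), which act in the principal cell, and Nr3c2, the mineralocorticoid receptor (1.39), were among the 11 listed risers. In the 600 challenge 5 were higher and 1 lower, beside 6.36% and 8.07% of all features. Pax2 (0.68), Emx2 (0.56), Nfat5 (0.48), Pax8 (0.45) and Klf5 (0.31) rose, and Gata3 was lower (-0.22). Gata3 was also the member of this list called for cyclosporin A, with a difference of -0.47 in the 600 challenge, a call that was lost when only those groups were fitted. In the 900 challenge 7 were higher and none lower, beside 6.43% and 11% of all features. Ehf (0.67), a close relative of Elf5 within the ETS family, was among the 7. Across 22 ETS family genes the long-term comparison called 5 higher and 5 lower (median -0.09), beside 8.33% and 8.84% of all features. After Elf5 (3.15) the next risers were Elf3 (0.61), Ets2 (0.34), Elf1 (0.28) and Ets1 (0.18), while Etv1 (-0.94), Spi1 (-0.88), Fli1 (-0.62), Etv4 (-0.51) and Elk3 (-0.26) were lower. Spi1 is the leukocyte factor PU.1, and Fli1 is a factor of endothelium and blood cells.

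For the 14 principal cell genes as a list, 10 were called higher and none lower in the 600 culture (median 1.23), beside 8.33% and 8.84% of all features. In the 600 challenge 1 was higher and 2 lower (median 0.06), beside 6.36% and 8.07%. In the 900 challenge 7 were higher and none lower (median 0.28), beside 6.43% and 11%. Fxyd4, a regulator of the sodium pump in the collecting duct, had a long-term difference of 3.17 ± 0.13 and was not called in either step (-0.32 and 0.25). Hsd11b2, the enzyme that shields the mineralocorticoid receptor, lay between 2.20 and 2.81 in all groups and was not called in these comparisons. Avpr2, Slc14a2 and Elf5 count in the totals of the lists that hold them: signalling (Avpr2), urea handling (Slc14a2), transcription factors and ETS family (Elf5) and principal cell genes (Avpr2 and Elf5).

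**Figure D3:**
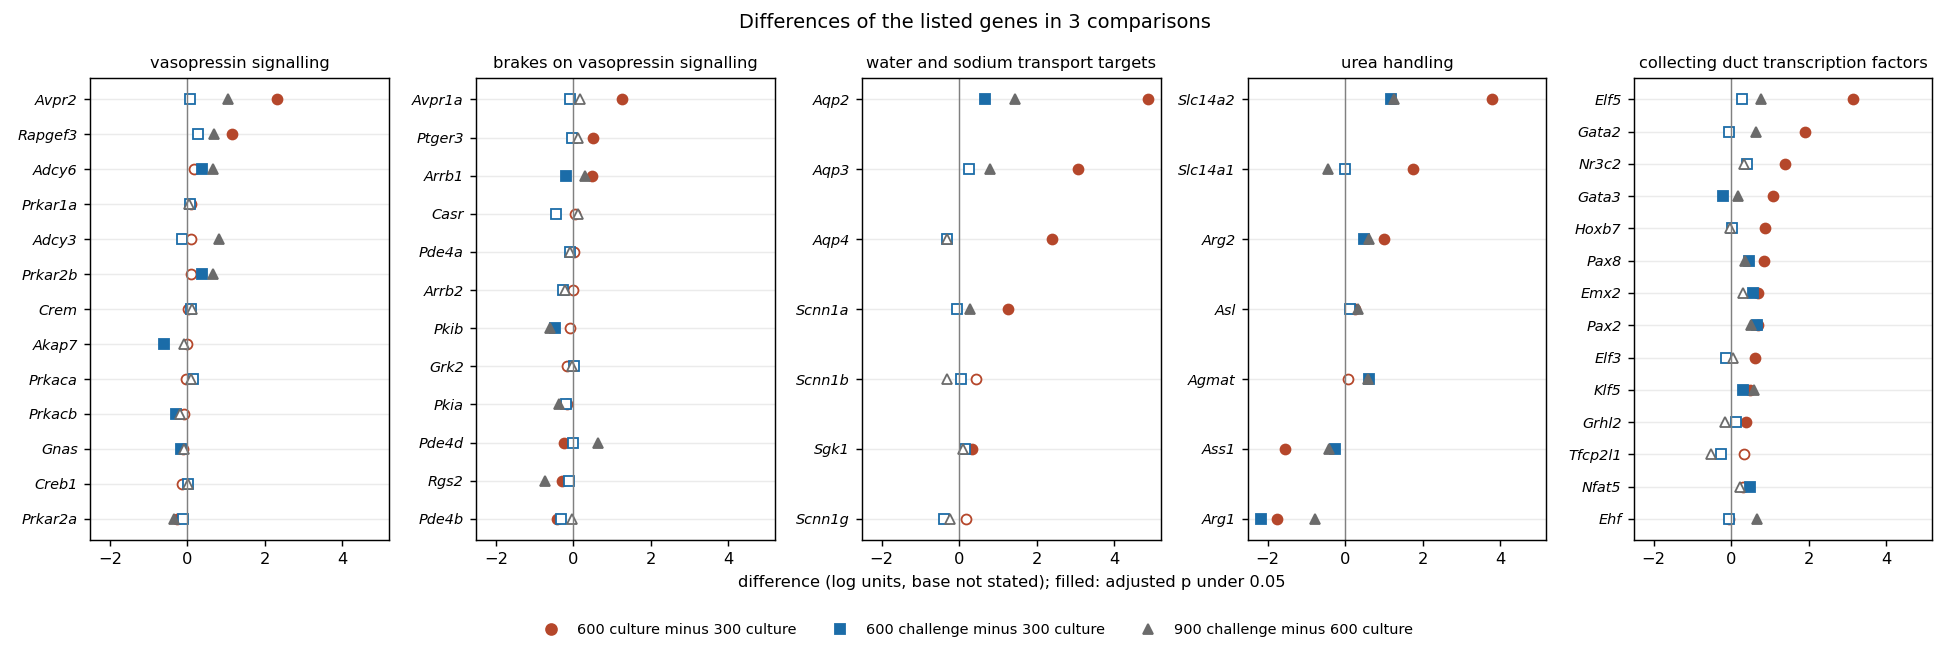
Differences (x axis, log units of unstated base) of the measured genes of 5 lists (y axis, ordered by the long-term difference) in the 600 culture against the 300 culture (circles), the 600 challenge against the 300 culture (squares) and the 900 challenge against the 600 culture (triangles). Filled symbols have an adjusted p under 0.05; Avpr2, Slc14a2 and Elf5 top the signalling, urea and transcription factor lists in the long-term comparison, which shares arrays with each of the others.

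Markers of other cell types moved between the same groups. The mean level of the 12 leukocyte markers was 5.82 to 5.91 on the arrays of the 300 culture, 4.64 to 4.77 in the 600 culture and 4.52 to 4.66 in the 600 challenge, and 3.53 to 3.56 in the 900 challenge. Of these 12 markers 11 were called lower in the 600 culture, 10 in the 600 challenge and 11 in the 900 challenge. Of all features 8.84%, 8.07% and 11% were called lower in the same order. Between the 600 culture and the 600 challenge 16.4% of all features were called in either direction. The leukocyte mean lay at 4.71 and 4.60 in these groups, with 3 markers called higher in the challenge and 4 lower. In that comparison fibroblast markers went from a mean of 5.75 to 5.35, with 8 of 11 called lower and 1 higher, and endothelial markers from 5.54 to 4.91, with 7 of 9 called lower. The 11 fibroblast markers averaged 6.05 to 6.11 in the 300 culture, 5.74 to 5.76 in the 600 culture, 5.32 to 5.38 in the 600 challenge and 5.06 to 5.15 in the 900 challenge. The 9 measured endothelial markers averaged 5.28 to 5.34, 5.45 to 5.62, 4.87 to 4.96 and 5.25 to 5.39 in the same order. In the 600 culture 4 were called higher and 3 lower, beside 8.33% and 8.84% of all features. The part of leukocytes, fibroblasts and endothelium in the levels of Avpr2, Slc14a2 and Elf5 was not tested.

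Loop of Henle markers were higher in the 600 culture and the 900 challenge, as the 3 genes were, and some were also higher in the 600 challenge, where of the 3 only Slc14a2 was called. The mean over 6 measured genes of 8 was 3.10 to 3.30 in the 300 culture, 3.53 to 3.76 in the 600 challenge, 4.62 to 4.76 in the 600 culture and 5.42 to 5.45 in the 900 challenge. In the long-term comparison 5 of the 6 were called higher, beside 8.33% of all features. These were the water channel gene Aqp1 (2.45), Bsnd (2.06), Cldn10 (1.99), Slc12a1 (1.92), which encodes the cotransporter NKCC2, and Cldn16 (0.68). In the 600 challenge Aqp1 (1.18), Bsnd (0.61), Slc12a1 (0.51) and Cldn16 (0.34) were called higher, beside 6.36% of all features. Bsnd lay at 1.26 in the 300 culture and 1.88 in the 600 challenge, both below the lower quartiles. These levels are not shown to be above background, so the sizes of both Bsnd differences are uncertain. Umod, which encodes uromodulin of the thick limb, lay between 2.61 and 2.87 in all groups and was not called. Since UT-A2 belongs to the thin descending limb, as Aqp1 does, the Slc14a2 level cannot be assigned to collecting duct transcripts alone, and the part of such cells was not tested. Intercalated cell markers averaged between 2.01 and 2.65 on every array, and Foxi1 and the proton pump subunit genes had group means below 2.7 throughout. The anion exchanger gene Slc26a4 of this list ran the other way from the 3 genes, with 6.15 in the 300 culture, 6.12 in the 600 challenge and 3.61 in the 600 culture. Urothelial markers, 5 of 6 measured, averaged between 2.17 and 2.73. In the 600 culture 2 of these 5 were called higher than in the 300 culture, beside 8.33% of all features. Against the 600 culture 2 were called lower in the 600 challenge, where 16.4% of all features were called in either direction. None was called in either step. No value of any of these marker features was 0.

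**Figure D4:**
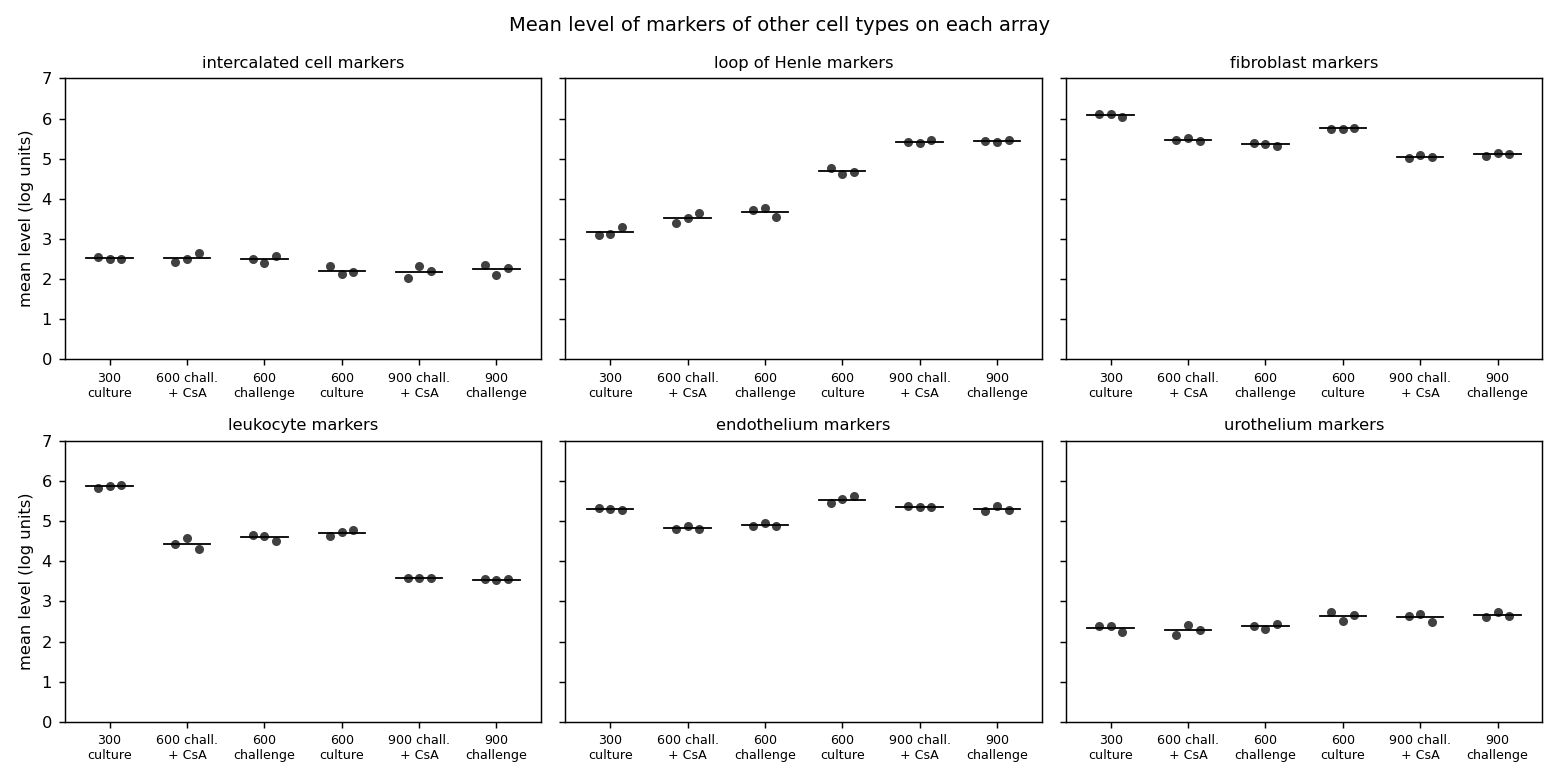
Mean level of the measured markers of 6 other cell types (y axis, log units of unstated base) on each array, by group (x axis; CsA, cyclosporin A; points are arrays, lines are means of 3). Leukocyte and fibroblast markers were highest in the 300 culture, loop of Henle markers were highest in both 900 challenges, and intercalated cell and urothelial markers stayed below 2.8.

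Over the 18 arrays Avpr2 and Elf5 correlated at 0.988 (Pearson), Avpr2 and Slc14a2 at 0.982, and Slc14a2 and Elf5 at 0.982. These values describe mainly the distance between arrays first grown at 300 and at 600 mosmol/kg. Among the 9 arrays first grown at 600 the 3 correlations were 0.973, 0.988 and 0.974, and among the 9 first grown at 300 they were -0.21, 0.12 and 0.41. With the group means removed they were -0.29, 0.16 and 0.07, so arrays of 1 group that were high in a gene were not reliably high in another. Among 14007 other features with a single symbol, Elf5 stood at place 19 in likeness to Avpr2, and Slc14a2 at place 46.

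By correlation over the 18 arrays the features most like Avpr2 were Ptgs1, the constitutive cyclooxygenase gene (0.997), Aqp2 (0.994), Cyp27b1, which encodes the enzyme that activates vitamin D (0.993), Slc35g2 (0.992) and Akr7a3 (0.992). Those most like Elf5 were Aqp2 (0.996), Aqp3 (0.995), Alox15b (0.995), Cldn10 (0.994) and Igfbp7 (0.994). Slc14a2 had other neighbours: Epn3 (0.995), the adhesion molecule gene L1cam (0.993), Timp3, an inhibitor of metalloproteinases (0.992), Mycbpap (0.991) and S100g (0.991). Likeness over the 18 arrays selects features with the same group pattern, so their levels are given as a description. Timp3 read 5.83 in the 300 culture, 6.53 in the 600 challenge and 7.34 in the 600 culture. Ptgs1 read 5.47, 5.63 and 7.07 in the same groups. The water channel genes named here share with Avpr2 and Elf5 the arrays, the groups and the scaling, and the correlations carry no test.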

How the data were processed

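Rat gene arrays from 18 samples were used, with groups and replicate numbers from the sample titles (the source names of 2 arrays titled as replicate 3 give another number). The labels' protocols give RNA extraction with a Qiagen kit and Affymetrix whole-transcript labelling. The authors deposited 1 log-scale value for each feature and array. Summarisation, normalization and the base of the logarithm are not given in the sources used here, so the test planned on deposited log values was run on them as they stand, with no filter or pseudocount. Another base would rescale every difference by 1 factor and leave the p-values.

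Names came from the platform's gene table, where 15295 features have a single symbol. The 3 genes matched the RefSeq gene table (GRCr8) by Entrez identifier. A linear model with 6 group means was fitted to all 28328 features of 18 arrays with limma 3.58.1 (R 4.3.3), with moderated variances (12 residual and 2.03 prior degrees of freedom), Benjamini-Hochberg adjustment over all features and a threshold of 0.05. There were 9 comparisons of 2 groups and 2 of differences between effects. The script was tested on simulated data. Of 134 listed genes 128 were measured, each by its brightest feature over all arrays. The genes named were the members, the listed genes and, for each member, the 5 features with the highest Pearson correlation (placeholder, receptor family and small RNA symbols left out). The members and lists were chosen with earlier results of these data known. Alternatives were median centring, quantile normalization, a filter on dim features, robust moderation with a trend, only the groups compared, a replicate block and leaving out each array. The number of arrays limits the precision.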

Additional observations from a re-analysis of the deposited data

Results flagged for a closer look

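Avpr2 rose more in the step from 600 to 900 mosmol/kg than in the step from 300 to 600, by 0.984 log units in the limma test of the difference between the steps (95% interval 0.64 to 1.32, adjusted p = 0.00146). All 3 arrays of the 900 challenge lay above the 600 culture, while those of the 600 challenge overlapped the 300 culture. The share of all features that separate in this way was not counted. The Avpr2 levels of the 300 culture and the 600 challenge are not shown to be above background, so the smaller step may be understated. The adjusted p ran from 0.000144 to 0.0107 over the other settings and from 0.000185 to 0.00539 when an array was left out.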

How the results depend on the processing

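Of the 33 comparisons of the 3 genes, 18 were called, and all 222 alternatives of these kept direction and call. Sign changes concerned uncalled differences near 0. Avpr2 in the 600 challenge with cyclosporin A against the 300 culture became -0.0002222 with quantile normalization. Median centring gave 0.004167 for its difference of drug effects and 0.007167 for Slc14a2 with the drug in the 900 challenge.

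Leaving out each array moved Avpr2 between -0.07633 and 0.1987 in the 600 challenge, between -0.04683 and 0.07933 in that challenge with the drug, between -0.1937 and 0.08133 for the drug in the 600 challenge, and between -0.152 and 0.123 for the difference of drug effects. Slc14a2 ran from -0.06333 to 0.02567 for the drug in the 900 challenge and from -0.013 to 0.1945 for the difference of steps. Elf5 ran from 0.1968 to 0.4233 in the 600 challenge (adjusted p 0.0227 to 0.403, called without replicate 1 of the 300 culture), from -0.043 to 0.19 with the drug, and from -0.08433 to 0.1487 for the difference of drug effects.

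With the replicate number as a replicate block Elf5 differed by 0.2853 in the 600 challenge (adjusted p = 0.182), and no call changed. Same-numbered arrays of different groups had residual correlations from -0.129 to 0.108 (median 0.009), and 5 of 18 arrays correlated best with their own number, so the numbers were not taken to pair arrays.

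Counts over all features moved more. Fitting only the groups compared lowered the calls from 3982 to 2479 (600 challenge with cyclosporin A against the 300 culture), 4934 to 2860 and 5040 to 3059 (900 challenge without and with the drug), and 4655 to 3071 (600 challenge against the 600 culture). It lowered the drug calls of limma from 116 and 143 to 0, with 2170 and 2446 features at an unadjusted p under 0.05. Leaving out dim features, or robust moderation, raised those to 265 and 268 in the 600 challenge and to 383 and 385 in the 900 challenge, and the difference of drug effects from 13 to 45 and 43 (5 with only those groups). Median centring moved the share called higher in the 900 challenge with the drug from 40.9% to 53.5%, and leaving out dim features that of the difference of drug effects from 84.6% to 64.4%. The cause was not tested. Signal over background is not given, which limits what can be said of Slc14a2 in the 300 culture.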
